A study of Mus musculus with 3 samples.

Results

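Transcripts of 43 genes for small leucine-rich proteoglycans, other proteoglycans and matrix glycoproteins were followed in mesenchymal cells of ectopic tissue masses in mice, out of 31053 genes in the deposited tables. The genes were listed by name, and all 43 had a row in each table. A cell was counted as mesenchymal when Col1a1, Col1a2 and Col3a1, the chains of collagens I and III, together made up at least 1% of its UMIs (unique molecular identifiers, each of which stands for 1 captured mRNA molecule). These cells were then divided by detection of Inhba, Pi16, Col15a1 or Col2a1, that is, by whether a cell had at least 1 UMI of that gene.

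Masses were taken from CD1 mice, an outbred strain, 5 days after implantation of Matrigel, a gel of basement membrane proteins. In the antibody library the gel carried recombinant human BMP2 and the mice received a systemic antibody that neutralizes activin A. In the IgG library the gel carried recombinant human BMP2 and the mice received pre-immune control IgG. In the Matrigel library the gel carried no BMP2, and its labels name no IgG, so the effects of BMP2 and of IgG cannot be told apart in the comparison of IgG with Matrigel. There was 1 library per group, made by droplet sequencing of the 3' ends of transcripts, and how many animals each stands for is not stated in the labels. No difference between groups therefore had a replicate check, and no test was made. Levels are UMIs per 1000000 UMIs of the same cells (CPM), ratios are given with exact 95% intervals for counting error only, and "higher" or "lower" means a ratio past 1.5-fold.

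As background, small leucine-rich proteoglycans bind collagen fibrils and govern their thickness and spacing, and several also bind growth factors of the TGF-beta family, to which BMP2 and activin A belong. Elastic fibres are built when elastin is laid down on microfibrils of fibrillin with the help of fibulins, microfibril-associated proteins and emilins. Syndecans and glypicans carry heparan sulfate chains that hold growth factors at the cell surface, and hyaluronan is made by the Has enzymes and bound by CD44. In mice, BMP2 implants first recruit mesenchymal cells that become cartilage, which is later replaced by bone. Inhba encodes the subunit of activin A, Pi16 and Col15a1 mark fibroblast states of mouse connective tissue, and Col2a1 encodes the main collagen of cartilage.

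There were 592 mesenchymal cells in the antibody library (10.4% of the cells kept), 1478 in the IgG library (26%) and 1982 in the Matrigel library (23.2%). All 10 mesenchymal markers were detected in all 3 libraries. They include Col1a1, Col1a2 and Col3a1, which define the cells, and Dcn and Lum, which are among the genes studied. For these the detection is no separate check of the rule. The median depth of these cells was 19186 UMIs with the antibody, 17191 with IgG and 8752 in Matrigel. Between 0.5% and 1% of UMIs from the collagens, just outside the rule, there were 21, 68 and 46 cells in the antibody, IgG and Matrigel libraries. Between 1% and 2%, just inside it, there were 62, 161 and 26. The 8 chondrocyte markers summed to 1001 CPM with the antibody, 4654 CPM with IgG and 77.3 CPM in Matrigel, where Col9a1 and Hapln1 were at 0. Col2a1-positive cells stayed in the sums, and the genes whose call depended on them are named with the results. The 8 myeloid markers summed to 137, 152 and 251 CPM in mesenchymal cells of the antibody, IgG and Matrigel libraries. Of all deposited barcodes, the antibody and IgG libraries shared 7, the antibody and Matrigel libraries 16, and the IgG and Matrigel libraries 19, and no barcode was in all 3.

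Together the 43 genes held 4.14% of mesenchymal UMIs with the antibody, 4.29% with IgG and 5.66% in Matrigel. All 43 passed the minimum of 10 UMIs in 1 of the libraries compared, and the lowest count in any library was 75 UMIs, for Edil3 in Matrigel. In the comparison of IgG with Matrigel, 8 of the 43 were higher with IgG and 21 were lower, against 16.6% higher and 21.1% lower among the 14339 genes measured in these cells (37.7% either way). Their median log2 ratio was -0.39, and that of all genes was -0.03. In the comparison of the antibody with IgG, 12 were higher with the antibody and 10 were lower, against 9.90% and 12.7% of 14009 genes (22.6% either way). The median log2 ratio there was -0.06, beside -0.07 over all genes. Among genes with 50 or more UMIs in 1 library, 13.7% were higher and 18.2% lower with IgG than in Matrigel (31.9% in all), and 7.15% were higher and 9.17% lower with the antibody than with IgG (16.3% in all). Without Col2a1-positive cells 7 of the 43 were higher and 23 lower with IgG than in Matrigel, and 10 were higher and 10 lower with the antibody than with IgG. Calls added when those cells were left out were Aspn, 1.59-fold higher, Lum, 1.53-fold lower, and Fbln5, 1.80-fold lower, with IgG than in Matrigel. With the antibody than with IgG they were Sdc2, 1.52-fold higher, Thbs1, 1.56-fold lower, and Fbn2, 1.61-fold lower. Both comparisons use the IgG library, so they are not independent of each other.

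**Figure D1:**
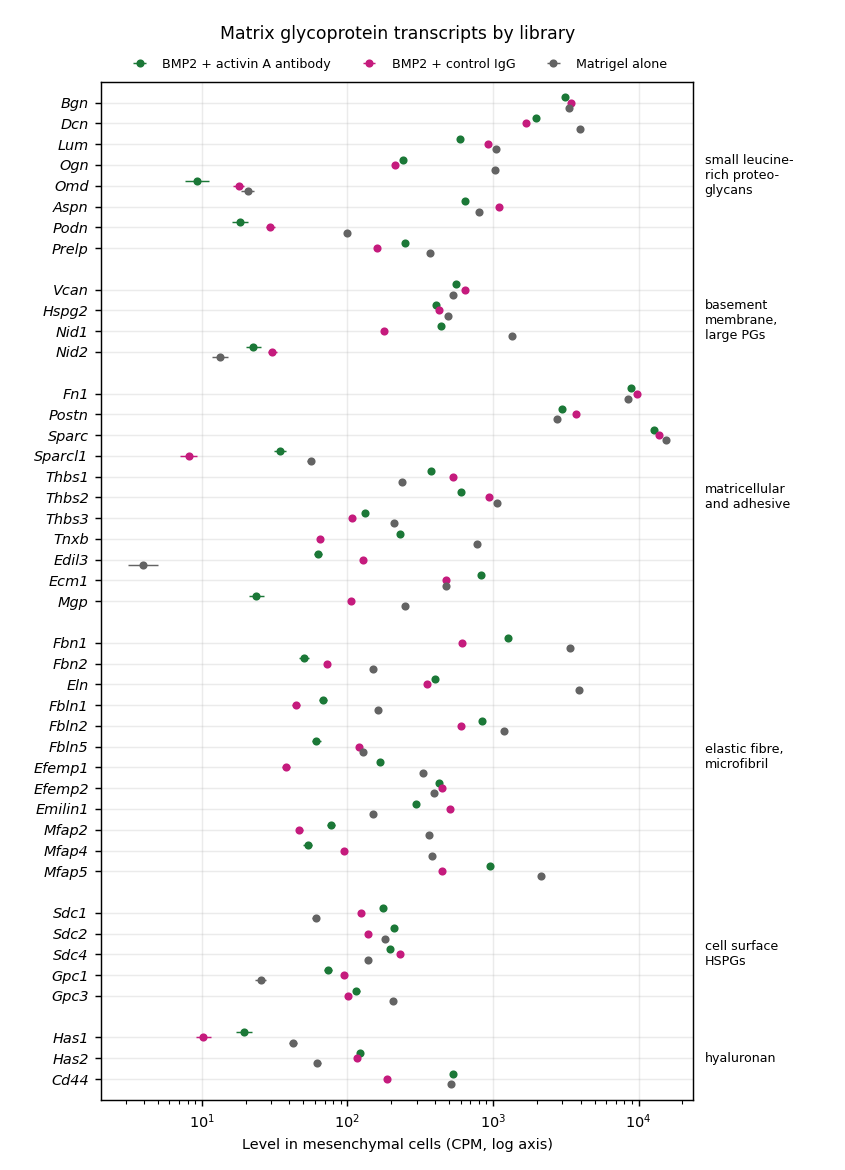
Level of each of the 43 genes in mesenchymal cells (CPM, log axis) in the antibody, IgG and Matrigel libraries, grouped by role. Bars are exact Poisson 95% intervals for counting error only, mostly narrower than the points. Sparc, Fn1 and Bgn lie close together in the 3 libraries, while Eln is at 3894 CPM in Matrigel and at 401 and 353 CPM in the antibody and IgG libraries.

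The groups of genes differed in how they were distributed. Over all genes, 16.6% were higher and 21.1% lower with IgG than in Matrigel, with a median log2 ratio of -0.03. With the antibody against IgG, 9.90% of all genes were higher and 12.7% lower, with a median of -0.07. With IgG, 9 of 12 elastic fibre and microfibril genes were lower than in Matrigel and 1 was higher, with a median log2 ratio of -1.94. Of the 8 small leucine-rich proteoglycans, 4 were lower and none was higher. Cell surface heparan sulfate proteoglycans went the other way, with 3 of 5 higher, 1 lower and a median log2 ratio of 0.71. With the antibody against IgG, 5 elastic fibre genes were higher and 3 lower, with a median log2 ratio of 0.33. Among small leucine-rich proteoglycans 1 was higher and 4 were lower there, and the 5 cell surface proteoglycans were within 1.5-fold, although Gpc3 was 2.21-fold higher with the antibody at a collagen cut of 5% and Sdc2 was 1.52-fold higher without Col2a1-positive cells. Summed over the 12 elastic fibre genes, the level was 4674 CPM with the antibody, 3376 CPM with IgG and 12684 CPM in Matrigel.

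**Figure D2:**
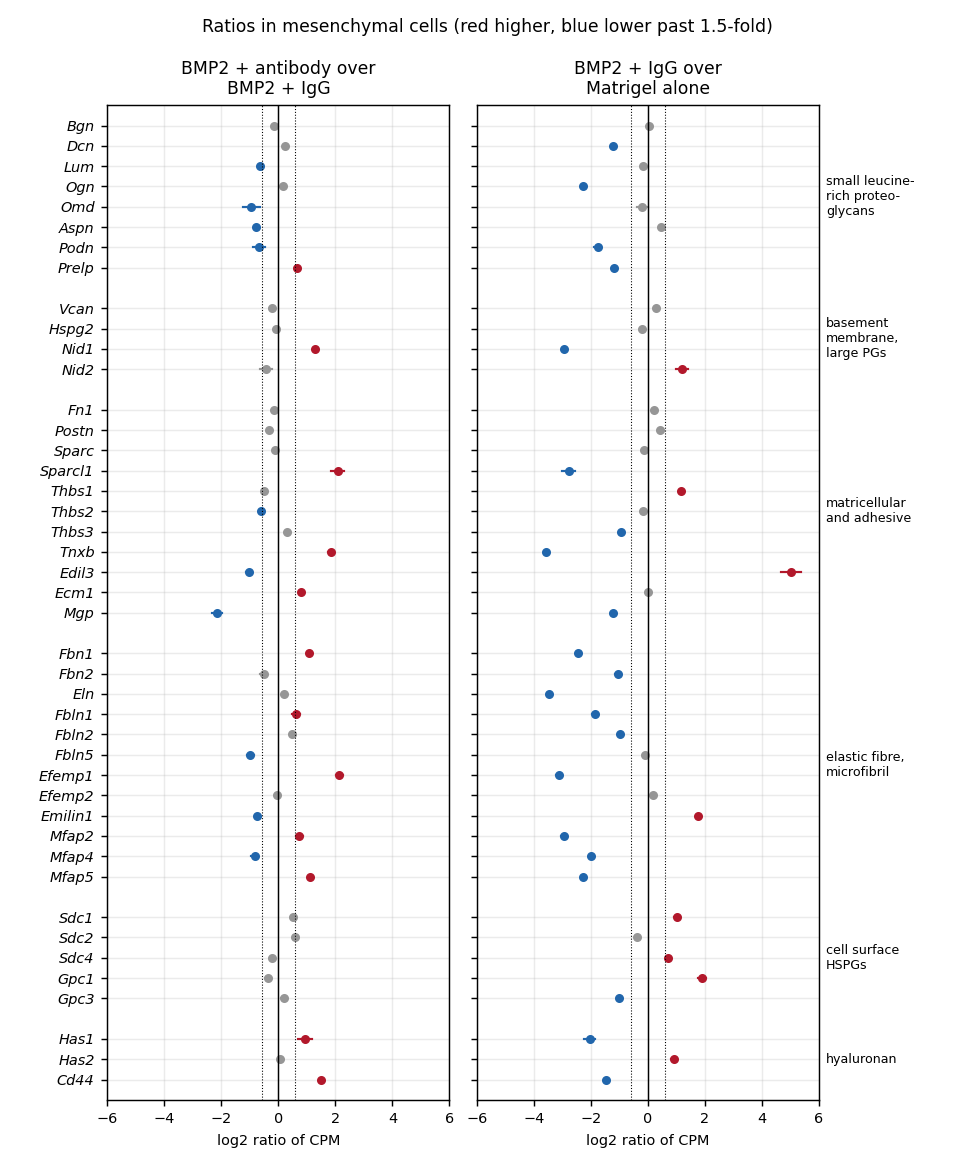
log2 ratio of CPM for each gene, the antibody over IgG on the left and IgG over Matrigel on the right, with exact 95% intervals for counting error. Dotted lines mark 1.5-fold; red genes are higher and blue genes lower past them, 12 and 10 on the left and 8 and 21 on the right.

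Of the small leucine-rich proteoglycans, Dcn, Ogn, Podn and Prelp were lower with IgG than in Matrigel. Bgn, encoding biglycan, had 3141 CPM with the antibody, 3456 CPM with IgG and 3348 CPM in Matrigel. It was past 1.5-fold in neither comparison. Dcn, encoding decorin, which binds collagen fibrils and TGF-beta, had 1965 CPM with the antibody, 1689 CPM with IgG and 3932 CPM in Matrigel. The Matrigel library was the highest, and Dcn was 2.33-fold lower (95% interval 2.30 to 2.36) with IgG than in Matrigel. Ogn, encoding osteoglycin, had 239.5 CPM with the antibody, 212 CPM with IgG and 1031 CPM in Matrigel, and was 4.86-fold lower (95% interval 4.72 to 5.01) with IgG than in Matrigel. Prelp, encoding a proteoglycan that anchors basement membranes to connective tissue, had 249 CPM with the antibody, 159.6 CPM with IgG and 367 CPM in Matrigel. Prelp was 2.30-fold lower (95% interval 2.22 to 2.39) with IgG than in Matrigel and 1.56-fold higher (95% interval 1.49 to 1.64) with the antibody than with IgG. Podn, encoding podocan, had 18.4 CPM with the antibody, 29.5 CPM with IgG and 99.7 CPM in Matrigel, with the Matrigel library the highest. It was 3.38-fold lower (95% interval 3.11 to 3.67) with IgG than in Matrigel and 1.60-fold lower (95% interval 1.38 to 1.86) with the antibody than with IgG.

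Aspn, Lum and Omd were lower with the antibody than with IgG and within 1.5-fold between IgG and Matrigel. In that second comparison Aspn was 1.68-fold higher with IgG at a collagen cut of 5%, and Aspn and Lum passed 1.5-fold without Col2a1-positive cells, as given above. Aspn, encoding asporin, which binds collagen and TGF-beta, had 645 CPM with the antibody, 1108 CPM with IgG and 804 CPM in Matrigel. The IgG library was the highest, and Aspn was 1.72-fold lower (95% interval 1.68 to 1.76) with the antibody than with IgG. Lum, encoding lumican, a regulator of fibril assembly, had 594 CPM with the antibody, 928 CPM with IgG and 1043 CPM in Matrigel, which made it 1.56-fold lower (95% interval 1.52 to 1.60) with the antibody than with IgG. Omd, encoding osteomodulin, a proteoglycan first known from bone, had 9.33 CPM with the antibody, 18 CPM with IgG and 20.7 CPM in Matrigel. It was 1.92-fold lower (95% interval 1.57 to 2.37) with the antibody than with IgG, on 119 and 484 UMIs. The calls depended on the weighting and the choice of cells. When each cell had equal weight, Lum was within 1.5-fold (ratio 0.763) and Omd within 1.5-fold (ratio 0.863), and without Col2a1-positive cells Lum was within 1.5-fold (ratio 0.781). Prelp was within 1.5-fold (ratio 1.45) between the antibody and IgG without those cells. With a collagen cut of 5% none of the 4 lower calls held: the ratio of the antibody to IgG was 0.989 for Lum, 0.743 for Omd, 0.671 for Aspn and 0.844 for Podn.

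Aspn, Omd and Ogn are neighbours. In the GENCODE M21 annotation of mm10 they lie on the plus strand of chromosome 13 in this order, within 80059 bases, and Dcn and Lum lie within 93095 bases on chromosome 10. Neighbours did not share one pattern: with IgG against Matrigel the log2 ratio was 0.46 for Aspn, -0.20 for Omd and -2.28 for Ogn. The 150 bases before the RefSeq start of each gene are shown because these 3 adjacent promoters go with different levels, from RefSeq on GRCm38.p6, plus strand, at chr13:49544293-49544442 for Aspn, chr13:49582312-49582461 for Omd and chr13:49607865-49608014 for Ogn. Capitals mark GGAATG, the motif of TEAD factors, which was found 86 bases before the start of Ogn. The 150 bases of Aspn and Omd held none of the 6 motifs searched. In the 250 bases before the start, Aspn and Ogn each had the letters TATAAA of the TATA box on 1 of the strands. These matches did not lie within the 150 bases shown. Omd had none of the 6 motifs in its 250 bases. Bases just after the RefSeq start were found in a GENCODE M21 transcript for Aspn and Omd, but not for Ogn.
Aspn: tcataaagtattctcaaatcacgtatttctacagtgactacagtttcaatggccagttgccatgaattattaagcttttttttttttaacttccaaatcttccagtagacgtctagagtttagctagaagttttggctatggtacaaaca
Omd: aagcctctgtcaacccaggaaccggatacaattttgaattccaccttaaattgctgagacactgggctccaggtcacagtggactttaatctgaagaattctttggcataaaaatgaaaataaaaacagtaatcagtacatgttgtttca
Ogn: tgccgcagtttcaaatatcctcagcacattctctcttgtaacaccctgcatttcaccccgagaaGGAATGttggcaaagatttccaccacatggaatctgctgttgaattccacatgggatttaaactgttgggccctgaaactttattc

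The motifs were searched on both strands in the 250 bases before the start, for the 28 of 43 genes with a promoter in the RefSeq table. A gene was counted once if any of its promoters held the motif. The TATA box TATAAA was in 5 of these 28 and in 14.3% of all 27025 genes with a promoter searched. The GC box GGGCGG was in 17 and 35.4%, and the AP-1 motif TGANTCA in 3 and 7.82%. GGAATG was in 3 and 14.4%, the short SMAD motif CAGAC in 13 and 45.8%, and the GC-rich SMAD motif GGCGCC in 4 and 10.8%. No motif contains another. A match describes letters only and shows no binding.

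Among basement membrane and large proteoglycan genes, Nid1 had the widest ratios. Nid1, encoding the glycoprotein that links laminin to collagen IV, had 438 CPM with the antibody, 179 CPM with IgG and 1358 CPM in Matrigel. The Matrigel library was the highest and the IgG library the lowest. Nid1 was 7.60-fold lower (95% interval 7.37 to 7.84) with IgG than in Matrigel, and 2.45-fold higher (95% interval 2.36 to 2.55) with the antibody than with IgG. Nid2, its paralog, had 22.7 CPM with the antibody, 30.6 CPM with IgG and 13.4 CPM in Matrigel. It was 2.28-fold higher (95% interval 1.97 to 2.63) with IgG than in Matrigel, but within 1.5-fold (ratio 1.25) when Col2a1-positive cells were left out. Nid2 counts were also low, with 289, 824 and 253 UMIs in the antibody, IgG and Matrigel libraries. Vcan, encoding versican, a large chondroitin sulfate proteoglycan that binds hyaluronan, had 556 CPM with the antibody, 641 CPM with IgG and 528 CPM in Matrigel. Hspg2, encoding perlecan, the heparan sulfate proteoglycan of basement membranes, had 406 CPM with the antibody, 427 CPM with IgG and 489 CPM in Matrigel. Vcan and Hspg2 were past 1.5-fold in neither comparison.

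The most abundant matricellular transcripts were similar in the 3 libraries. Sparc, encoding a collagen-binding glycoprotein, had 12865 CPM with the antibody, 13841 CPM with IgG and 15379 CPM in Matrigel. Fn1, encoding fibronectin, had 8881 CPM with the antibody, 9779.6 CPM with IgG and 8452 CPM in Matrigel. Postn, encoding periostin, had 2975 CPM with the antibody, 3691 CPM with IgG and 2760.1 CPM in Matrigel. None of these was past 1.5-fold in either comparison.

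Tnxb and Sparcl1 were lowest with IgG. Tnxb, encoding tenascin X, which binds collagen fibrils in loose connective tissue, had 229 CPM with the antibody, 64.5 CPM with IgG and 776 CPM in Matrigel. It was 12-fold lower (95% interval 11.4 to 12.6) with IgG than in Matrigel and 3.55-fold higher (95% interval 3.35 to 3.77) with the antibody than with IgG. Sparcl1, encoding the SPARC relative hevin, had 34.3 CPM with the antibody, 8.13 CPM with IgG and 55.9 CPM in Matrigel. Sparcl1 was 6.88-fold lower (95% interval 5.94 to 7.99) with IgG than in Matrigel and 4.22-fold higher (95% interval 3.58 to 4.98) with the antibody than with IgG, on 437, 219 and 1053 UMIs in the antibody, IgG and Matrigel libraries. Without Col2a1-positive cells, which held 68% of its UMIs in the IgG library, Sparcl1 was 13-fold lower with IgG than in Matrigel and 8.37-fold higher with the antibody than with IgG.

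Edil3 and Thbs1 were lowest in Matrigel. Edil3, encoding an integrin-binding glycoprotein, had 62.9 CPM with the antibody, 128 CPM with IgG and 3.98 CPM in Matrigel. It was 32.2-fold higher (95% interval 25.6 to 41) with IgG than in Matrigel, and 2.04-fold lower (95% interval 1.89 to 2.20) with the antibody than with IgG. Thbs1, encoding thrombospondin 1, which binds and activates latent TGF-beta, had 374 CPM with the antibody, 528 CPM with IgG and 237 CPM in Matrigel, and was 2.23-fold higher (95% interval 2.16 to 2.31) with IgG than in Matrigel. Thbs2, encoding thrombospondin 2, had 605 CPM with the antibody, 933 CPM with IgG and 1061 CPM in Matrigel, which made it 1.54-fold lower (95% interval 1.5 to 1.58) with the antibody than with IgG. After division by the median ratio of all genes Thbs2 was within 1.5-fold (ratio 0.679). Thbs3, encoding another thrombospondin, had 133 CPM with the antibody, 108 CPM with IgG and 208 CPM in Matrigel and was 1.94-fold lower (95% interval 1.84 to 2.03) with IgG than in Matrigel. Ecm1, encoding an adhesive matrix glycoprotein, had 824 CPM with the antibody, 473 CPM with IgG and 474 CPM in Matrigel, so that the antibody library was the highest. Ecm1 was 1.74-fold higher (95% interval 1.70 to 1.79) with the antibody than with IgG, and within 1.5-fold (ratio 1.35) with a collagen cut of 5%.

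Mgp, encoding matrix Gla protein, an inhibitor of calcification that also binds BMP2, had 23.8 CPM with the antibody, 106 CPM with IgG and 248 CPM in Matrigel. The antibody library was the lowest and the Matrigel library the highest. Mgp was 2.33-fold lower (95% interval 2.22 to 2.44) with IgG than in Matrigel, and 4.47-fold lower (95% interval 3.97 to 5.05) with the antibody than with IgG. Col2a1-positive cells held 65.6% of its UMIs in the IgG library. Without them Mgp was 4.08-fold lower with IgG than in Matrigel and 2.82-fold lower with the antibody than with IgG.

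The 150 bases before the start of Tnxb are shown because Tnxb had the lowest ratio of IgG to Matrigel among the 43 genes and the widest ratio between Pi16-positive and Pi16-negative cells of the IgG library. They are from RefSeq on GRCm38.p6, plus strand, at chr17:34670385-34670534, with the AP-1 motif TGANTCA in capitals, 55 bases before the start.
Tnxb: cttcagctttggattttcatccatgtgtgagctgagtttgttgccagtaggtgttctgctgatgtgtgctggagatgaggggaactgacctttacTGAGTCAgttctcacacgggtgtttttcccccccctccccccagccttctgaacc

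Elastic fibre genes were 9 of the 21 genes that were lower with IgG than in Matrigel. Eln, encoding tropoelastin, had 401 CPM with the antibody, 353 CPM with IgG and 3894 CPM in Matrigel. The Matrigel library stood far above both BMP2 libraries, and Eln was 11-fold lower (95% interval 10.8 to 11.3) with IgG than in Matrigel. With the antibody against IgG it was within 1.5-fold (ratio 1.14, 95% interval 1.10 to 1.18). Its UMIs in the BMP2 libraries came from few cells: the 10 cells with the most Eln held 49.8% of them with the antibody, 47.3% with IgG and 8.12% in Matrigel. Without those 10 cells of each library Eln was 19.2-fold lower with IgG than in Matrigel, and without Col2a1-positive cells it was 7.21-fold lower. Of these 10 cells, 10 with the antibody, 9 with IgG and 10 in Matrigel were Pi16-positive.

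The microfibril genes had less uneven levels. Fbn1, encoding fibrillin 1, the main microfibril protein, had 1275 CPM with the antibody, 612 CPM with IgG and 3382 CPM in Matrigel. The order was the same as for Nid1 and Tnxb, with Matrigel the highest and IgG the lowest. Fbn1 was 5.53-fold lower (95% interval 5.44 to 5.63) with IgG than in Matrigel, and 2.09-fold higher (95% interval 2.04 to 2.13) with the antibody than with IgG. Mfap5, encoding a microfibril-associated protein, had 956 CPM with the antibody, 447 CPM with IgG and 2152 CPM in Matrigel. Mfap5 was 4.81-fold lower (95% interval 4.72 to 4.91) with IgG than in Matrigel and 2.14-fold higher (95% interval 2.08 to 2.19) with the antibody than with IgG. Mfap2, encoding a related microfibril protein, had 77.8 CPM with the antibody, 46.8 CPM with IgG and 362 CPM in Matrigel. It was 7.75-fold lower (95% interval 7.30 to 8.24) with IgG than in Matrigel and 1.66-fold higher (95% interval 1.53 to 1.81) with the antibody than with IgG. Without Col2a1-positive cells Mfap2 was within 1.5-fold (ratio 1.37) between the antibody and IgG. Fbn2, encoding the fibrillin known mainly from developing tissue, had 50.5 CPM with the antibody, 72.4 CPM with IgG and 151 CPM in Matrigel and was 2.08-fold lower (95% interval 1.96 to 2.21) with IgG than in Matrigel.

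Efemp1 was the elastic fibre gene with the widest ratio between the antibody and IgG. Efemp1, encoding fibulin 3, had 168 CPM with the antibody, 37.9 CPM with IgG and 329 CPM in Matrigel. It was 8.69-fold lower (95% interval 8.14 to 9.30) with IgG than in Matrigel, and 4.42-fold higher (95% interval 4.10 to 4.77) with the antibody than with IgG. Fbln1, encoding fibulin 1, had 68.3 CPM with the antibody, 44.4 CPM with IgG and 162 CPM in Matrigel. It was 3.65-fold lower (95% interval 3.41 to 3.91) with IgG than in Matrigel and 1.54-fold higher (95% interval 1.41 to 1.68) with the antibody than with IgG, close to the threshold: without the 10 cells of each library with the most Fbln1 it was within 1.5-fold (ratio 1.46), and without Col2a1-positive cells within 1.5-fold (ratio 1.35). Fbln2, encoding fibulin 2, had 839.6 CPM with the antibody, 601 CPM with IgG and 1197 CPM in Matrigel and was 1.99-fold lower (95% interval 1.95 to 2.03) with IgG than in Matrigel. Efemp2, encoding fibulin 4, which is needed for elastin crosslinking in mice, had 427 CPM with the antibody, 443 CPM with IgG and 396 CPM in Matrigel. Efemp2 was past 1.5-fold in neither comparison.

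The 150 bases before the start of Efemp1 are shown for its ratios, from RefSeq on GRCm38.p6, plus strand, at chr11:28853055-28853204. The GC box, here as CCGCCC on the plus strand, is in capitals 29 bases before the start.
Efemp1: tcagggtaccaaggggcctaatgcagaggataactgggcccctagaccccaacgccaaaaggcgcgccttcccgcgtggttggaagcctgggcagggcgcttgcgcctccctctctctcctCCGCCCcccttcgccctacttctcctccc

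Mfap4, Fbln5 and Emilin1 were lower with the antibody than with IgG, unlike the 5 elastic fibre genes that were higher. Mfap4, encoding a microfibril-associated protein, had 53.3 CPM with the antibody, 94.2 CPM with IgG and 379 CPM in Matrigel. It was 4.02-fold lower (95% interval 3.84 to 4.21) with IgG than in Matrigel and 1.77-fold lower (95% interval 1.62 to 1.93) with the antibody than with IgG, and with a collagen cut of 5% it was within 1.5-fold (ratio 0.731) between the antibody and IgG. Fbln5, encoding fibulin 5, which tethers elastin to microfibrils, had 61.1 CPM with the antibody, 121 CPM with IgG and 129 CPM in Matrigel, and was 1.98-fold lower (95% interval 1.83 to 2.14) with the antibody than with IgG. Without Col2a1-positive cells this comparison was within 1.5-fold (ratio 0.710), and with a collagen cut of 5% it was within 1.5-fold (ratio 1.08), in the other direction. Between IgG and Matrigel Fbln5 was within 1.5-fold (ratio 0.938). It was 1.80-fold lower with IgG without Col2a1-positive cells and 2.59-fold lower with a collagen cut of 5%. Emilin1, encoding a glycoprotein at the interface of elastin and microfibrils that restrains TGF-beta processing, had 297 CPM with the antibody, 504 CPM with IgG and 149.6 CPM in Matrigel. It alone of the 12 was higher with IgG than in Matrigel, being 3.37-fold higher (95% interval 3.23 to 3.51), and was 1.69-fold lower (95% interval 1.63 to 1.76) with the antibody than with IgG.

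Of the cell surface heparan sulfate proteoglycans, Gpc1, Sdc1 and Sdc4 were higher with IgG than in Matrigel. Gpc1, encoding glypican 1, had 73.6 CPM with the antibody, 94.3 CPM with IgG and 25.4 CPM in Matrigel, and was 3.72-fold higher (95% interval 3.37 to 4.11) with IgG. Sdc1, encoding syndecan 1, had 176 CPM with the antibody, 124 CPM with IgG and 60.7 CPM in Matrigel, and was 2.04-fold higher (95% interval 1.91 to 2.18) with IgG. Sdc4, encoding the focal adhesion syndecan, had 197 CPM with the antibody, 229 CPM with IgG and 139 CPM in Matrigel, and was 1.64-fold higher (95% interval 1.57 to 1.72) with IgG. Without Col2a1-positive cells Sdc4 was within 1.5-fold (ratio 1.37). Gpc3, encoding glypican 3, went the other way, with 115 CPM with the antibody, 101 CPM with IgG and 205 CPM in Matrigel, which was 2.03-fold lower (95% interval 1.93 to 2.13) with IgG than in Matrigel. Sdc2, encoding syndecan 2, had 208 CPM with the antibody, 139 CPM with IgG and 182 CPM in Matrigel and was past 1.5-fold in neither comparison.

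The hyaluronan genes had unlike patterns. Cd44, encoding the hyaluronan receptor, had 528 CPM with the antibody, 186 CPM with IgG and 519 CPM in Matrigel. The antibody and Matrigel libraries were alike and the IgG library was the lowest. Cd44 was 2.79-fold lower (95% interval 2.69 to 2.88) with IgG than in Matrigel, and 2.84-fold higher (95% interval 2.74 to 2.94) with the antibody than with IgG. Has2, encoding the main hyaluronan synthase of mesenchyme, had 122 CPM with the antibody, 117 CPM with IgG and 62.4 CPM in Matrigel, and was 1.87-fold higher (95% interval 1.75 to 2.00) with IgG than in Matrigel. Has1, encoding another synthase, had 19.5 CPM with the antibody, 10.3 CPM with IgG and 42.4 CPM in Matrigel. It was 4.13-fold lower (95% interval 3.60 to 4.75) with IgG than in Matrigel and 1.90-fold higher (95% interval 1.59 to 2.26) with the antibody than with IgG, on 249 and 277 UMIs. With each cell weighted equally Has1 was within 1.5-fold (ratio 1.32) between the antibody and IgG.

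Inhba-positive cells were 349 of the mesenchymal cells with the antibody (59%), 1086 with IgG (73.5%) and 228 in Matrigel (11.5%). They had more UMIs than Inhba-negative cells, with medians of 26327 against 11885 with the antibody, 18726 against 11028 with IgG and 13692 against 8336 in Matrigel. When cells were divided by the 4 genes after thinning to 2000 UMIs, 14 counts of genes past 1.5-fold could be formed. All 14 stayed within 1.5 times of those reported. The part of depth in single ratios was not tested. After every cell had been thinned to 2000 UMIs, which left 556, 1412 and 1835 cells of the antibody, IgG and Matrigel libraries and left out 36, 66 and 147, 36.7% of cells with the antibody, 44.5% with IgG and 3.38% in Matrigel had an Inhba UMI.

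Dcn, Ogn, Omd, Podn, Nid1, Sparcl1, Tnxb, Fbn2, Eln, Fbln1, Efemp1, Mfap2 and Gpc3 were lower in Inhba-positive than in Inhba-negative cells of all 3 libraries, and Edil3 and Thbs1 were higher. In the antibody library 8 of the 43 genes were higher and 20 lower in Inhba-positive than in Inhba-negative cells, against 20.1% of all genes higher and 17.8% lower, 38.0% in all. In the IgG library 4 were higher and 20 lower, against 11.9% of all genes higher and 14.1% lower, 26.0% in all. In the Matrigel library 4 were higher and 15 lower, against 9.18% of all genes higher and 16.5% lower, 25.6% in all. The median log2 ratio of the 12 elastic fibre genes was -1.99 with the antibody, -1.91 with IgG and -0.50 in Matrigel. Over all genes the medians were 0.02, -0.05 and 0.02 in the antibody, IgG and Matrigel libraries.

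Tnxb and Efemp1 were far lower in Inhba-positive than in Inhba-negative cells of both BMP2 libraries. Tnxb had 19.4 CPM in Inhba-positive cells and 896 CPM in Inhba-negative cells of the antibody library, 5.65 against 348 CPM in the IgG library and 357 against 873 CPM in the Matrigel library. Efemp1 had 10.0 CPM in Inhba-positive cells and 668 CPM in Inhba-negative cells of the antibody library, 3.76 against 202 CPM in the IgG library and 165 against 368 CPM in the Matrigel library. The separation was narrower in Matrigel for both genes. Edil3 went the other way, with 80.2 CPM in Inhba-positive cells and 7.86 CPM in Inhba-negative cells of the antibody library, 147 against 38.9 CPM in the IgG library and 11.6 against 2.22 CPM in the Matrigel library. In Matrigel Edil3 had only 75 UMIs in all mesenchymal cells. Thbs1 was 2.54-fold higher with the antibody, 1.58-fold higher with IgG and 1.95-fold higher in Matrigel. Emilin1 was 2.30-fold higher in Inhba-positive cells with the antibody and 1.64-fold higher with IgG, and within 1.5-fold (ratio 1.18) in Matrigel. Cd44 was 3.18-fold higher in Inhba-positive cells with the antibody, within 1.5-fold (ratio 0.868) with IgG and 2.46-fold higher in Matrigel.

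Pi16-positive cells were 185 of the mesenchymal cells with the antibody (31.2%), 179 with IgG (12.1%) and 1095 in Matrigel (55.2%). Some were also Inhba-positive: 16 cells with the antibody, 42 with IgG and 45 in Matrigel had both. These were 8.65%, 23.5% and 4.11% of the Pi16-positive cells of the antibody, IgG and Matrigel libraries. Of the Inhba-positive cells they were 4.58%, 3.87% and 19.7%, in the same order. The ratios by Pi16 and by Inhba come from the same cells and are not independent of each other. Myeloid cells, which should lack Pi16, had a Pi16 UMI in 6.05% of cells with the antibody, 3.62% with IgG and 5.81% in Matrigel, a background share at the lower depth of those cells (medians of 4479, 3270.0 and 2905 UMIs in the antibody, IgG and Matrigel libraries).

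Efemp1, Eln, Fbln1, Fbn1, Mfap2 and Mfap5 of the elastic fibre genes were higher in Pi16-positive than in Pi16-negative cells of all 3 libraries, and Emilin1 was lower in all 3. Of the 43 genes, 20 were higher and 10 lower than in Pi16-negative cells of the antibody library, against 18.1% of all genes higher and 23.1% lower, 41.2% in all. The counts were 18 higher and 6 lower in the IgG library (against 15.3% of all genes higher and 17.7% lower, 33.1% in all), and 15 higher and 7 lower in the Matrigel library (against 12.5% of all genes higher and 14.3% lower, 26.8% in all). Of the 12 elastic fibre genes, 9 were higher and 1 lower with the antibody, 9 higher and 2 lower with IgG, and 7 higher and 1 lower in Matrigel. Their median log2 ratios were 2.22 with the antibody, 2.27 with IgG and 0.69 in Matrigel, beside -0.06, 0.01 and -0.06 over all genes of the antibody, IgG and Matrigel libraries.

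Eln had the widest ratio by Pi16 in the antibody library and in the Matrigel library. It was at 1838 CPM in Pi16-positive cells and 18.7 CPM in Pi16-negative cells of the antibody library, 2641 against 87 CPM in the IgG library and 6819 against 1229 CPM in the Matrigel library. Tnxb was at 1022 CPM in Pi16-positive cells and 18.5 CPM in Pi16-negative cells of the antibody library, 571 against 5.63 CPM in the IgG library and 1175 against 413 CPM in the Matrigel library. Pi16-positive cells held 93.6% of Tnxb UMIs with the antibody, 92.2% with IgG and 72.2% in Matrigel, while they held 21%, 10.4% and 47.7% of all mesenchymal UMIs of the antibody, IgG and Matrigel libraries. Among small leucine-rich proteoglycans, Dcn was 4.59-fold higher in Pi16-positive cells with the antibody, 2.87-fold higher with IgG and 1.69-fold higher in Matrigel. Ogn was 9.77-fold higher with the antibody, 3.52-fold higher with IgG and 2.79-fold higher in Matrigel. Nid1 and Gpc3 were higher in Pi16-positive cells of all 3 libraries as well, Nid1 by 5.59-fold and Gpc3 by 7.02-fold in the antibody library. Edil3, Emilin1, Gpc1 and Thbs1 were lower in Pi16-positive cells of all 3 libraries. Edil3 was 12.3-fold lower with the antibody, 4.78-fold lower with IgG and 2.89-fold lower in Matrigel. Pi16-positive cells held only 2.12% of its 802 UMIs with the antibody and 24% of 75 UMIs in Matrigel.

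**Figure D3:**
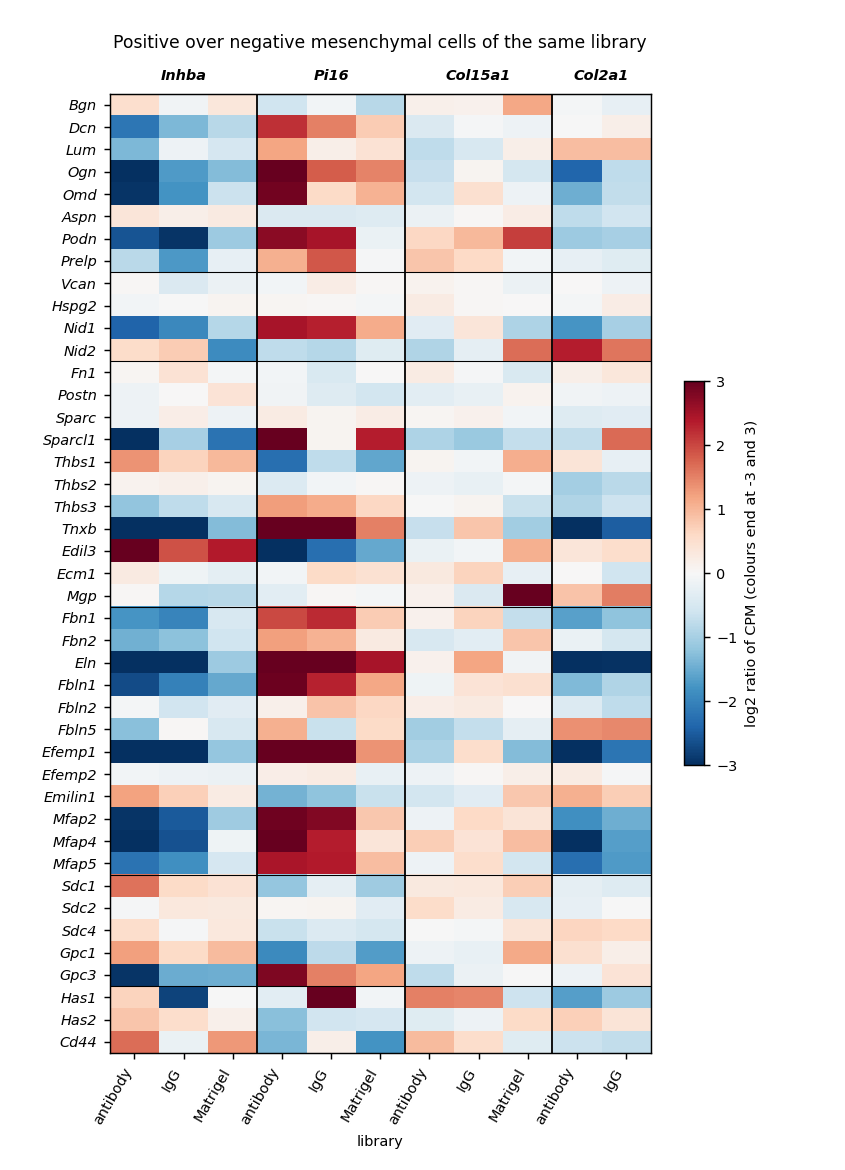
log2 ratio of CPM between positive and negative mesenchymal cells of the same library, for detection of Inhba, Pi16, Col15a1 and Col2a1 (columns) and the 43 genes grouped by role (rows). Red is higher and blue lower in positive cells, and colours end at -3 and 3. Of the 12 elastic fibre genes, 9 with the antibody and 8 with IgG are lower past 1.5-fold by Inhba, and 9 in each are higher by Pi16.

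Col15a1-positive cells were 196 of the mesenchymal cells with the antibody, 501 with IgG and 752 in Matrigel. Col15a1 was detected in 33.1%, 33.9% and 37.9% of the mesenchymal cells of the antibody, IgG and Matrigel libraries. After thinning to 2000 UMIs the shares were 11.5%, 8.99% and 24%. By Col15a1, 5 of the 43 genes were higher and 8 lower with the antibody (against 4.57% of all genes higher and 10.2% lower, 14.8% in all), 8 higher and 2 lower with IgG (against 6.16% of all genes higher and 6.0% lower, 12.2% in all), and 11 higher and 7 lower in Matrigel (against 11.5% of all genes higher and 7.08% lower, 18.6% in all). Podn was higher in Col15a1-positive cells of all 3 libraries, by 1.53-fold with the antibody, 1.96-fold with IgG and 4.18-fold in Matrigel.

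Bgn, Thbs1, Edil3, Mgp, Fbn2, Emilin1, Sdc1 and Gpc1 were higher in Col15a1-positive cells of the Matrigel library and were within 1.5-fold in both BMP2 libraries. Mgp was at 25.1 CPM in Col15a1-positive cells and 22.9 CPM in Col15a1-negative cells of the antibody library, 88 against 118 CPM in the IgG library and 503 against 54.2 CPM in the Matrigel library. In Matrigel these cells held 87.5% of the Mgp UMIs, and all 10 cells with the most Mgp were among them. Bgn was at 3333 CPM in Col15a1-positive cells and 3015 CPM in Col15a1-negative cells of the antibody library, 3633 against 3339.6 CPM in the IgG library and 4882 against 2187 CPM in the Matrigel library. In Matrigel Bgn was 2.23-fold higher (95% interval 2.20 to 2.27) in Col15a1-positive cells. Whether the ratios differ between libraries was not tested.

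Col2a1-positive cells were 58 with the antibody, 539 with IgG and 1 in Matrigel, so no ratio was formed in the Matrigel library. Myeloid cells had a Col2a1 UMI in 0.741% of cells with the antibody and 6.22% with IgG, beside 9.80% and 36.5% of mesenchymal cells of the antibody and IgG libraries, and the part of free RNA in this division was not tested. In both libraries 7 of the 43 genes were higher and 18 lower in Col2a1-positive than in Col2a1-negative cells, against 9.80% of all genes higher and 20.6% lower, 30.4% in all, in the antibody library and 6.21% of all genes higher and 13.1% lower, 19.3% in all, in the IgG library. The median log2 ratio of the elastic fibre genes was -1.46 with the antibody and -1.06 with IgG, beside 0.03 and -0.05 over all genes of the antibody and IgG libraries.

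Lum, Nid2, Fbln5, Emilin1, Mgp and Sdc4 were higher in Col2a1-positive cells of both libraries. Nid2 was at 75.8 CPM in Col2a1-positive cells and 14.9 CPM in Col2a1-negative cells of the antibody library and 51.4 against 16.8 CPM in the IgG library. Fbln5 was at 132 CPM in Col2a1-positive cells and 50.8 CPM in Col2a1-negative cells of the antibody library and 196 against 71.5 CPM in the IgG library. Lum was 1.91-fold higher with the antibody and 1.91-fold higher with IgG. Mgp was 1.80-fold higher with the antibody and 2.89-fold higher with IgG. Eln was at 4.32 CPM in Col2a1-positive cells and 459 CPM in Col2a1-negative cells of the antibody library and 69.1 against 540.3 CPM in the IgG library, the lowest ratio among the 43 genes in each of the antibody and IgG libraries. Efemp1, Tnxb and Mfap5 were lower in Col2a1-positive cells of both libraries too, with Mfap5 4.82-fold lower with the antibody and 3.22-fold lower with IgG.

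Libraries differed in how many cells of each kind they held, so the comparisons were repeated inside Inhba-positive and inside Pi16-positive cells. Inhba-positive cells were themselves mixed: 14.3% with the antibody, 43.1% with IgG and 0% in Matrigel were also Col2a1-positive. At least 2 Inhba UMIs were in 313 of 349 with the antibody, 961 of 1086 with IgG and 98 of 228 in Matrigel. Pi16-positive cells were mixed too: 0.541% with the antibody, 15.6% with IgG and 0% in Matrigel were also Col2a1-positive. At least 2 Pi16 UMIs were in 164 of 185 with the antibody, 127 of 179 with IgG and 901 of 1095 in Matrigel. The part of such differences in the ratios was not tested. In Inhba-positive cells, 6 of the 43 genes were higher and 20 lower with IgG than in Matrigel, against 17.0% of all genes higher and 17.0% lower, 34.0% in all. With the antibody against IgG, 12 were higher and 13 lower in these cells (against 8.07% of all genes higher and 13.8% lower, 21.9% in all). In Pi16-positive cells 8 were higher and 11 lower with IgG than in Matrigel (against 12.9% of all genes higher and 17.3% lower, 30.2% in all), and 6 were higher and 10 lower with the antibody than with IgG (against 10.4% of all genes higher and 18.1% lower, 28.5% in all). The median log2 ratio of the elastic fibre genes for IgG against Matrigel was -1.75 in Inhba-positive cells and -0.57 in Pi16-positive cells, beside -1.94 in all mesenchymal cells. Over all genes these medians were -0.05, -0.01 and -0.03 in Inhba-positive, Pi16-positive and all mesenchymal cells.

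Within Pi16-positive cells several of the wide ratios were smaller. Eln had 1838 CPM with the antibody, 2641 CPM with IgG and 6819 CPM in Matrigel in Pi16-positive cells, which was 2.58-fold lower (95% interval 2.52 to 2.65) with IgG than in Matrigel. Tnxb had 1022 CPM with the antibody, 571 CPM with IgG and 1175 CPM in Matrigel in these cells, 2.06-fold lower with IgG than in Matrigel and 1.79-fold higher with the antibody than with IgG. Efemp1 had 759 CPM with the antibody, 319 CPM with IgG and 482 CPM in Matrigel, 1.51-fold lower with IgG than in Matrigel and 2.38-fold higher with the antibody than with IgG. The antibody library was thus the highest of the 3 for Efemp1 in Pi16-positive cells. Fbn1 had 3116 CPM with the antibody, 2072 CPM with IgG and 4304 CPM in Matrigel, and was 1.5-fold higher with the antibody than with IgG, at the threshold. Nid1 had 1248 CPM with the antibody, 631 CPM with IgG and 1891 CPM in Matrigel, and was 1.98-fold higher with the antibody than with IgG. Dcn was within 1.5-fold in both comparisons of Pi16-positive cells, with 5140.4 CPM with the antibody, 4055 CPM with IgG and 5005 CPM in Matrigel.

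Within Inhba-positive cells Eln, Tnxb and Cd44 had wide ratios. Eln had 75.3 CPM with the antibody, 60.7 CPM with IgG and 2022 CPM in Matrigel in Inhba-positive cells, 33.3-fold lower with IgG than in Matrigel. Tnxb had 19.4 CPM with the antibody, 5.65 CPM with IgG and 357 CPM in Matrigel, 63.3-fold lower with IgG than in Matrigel. Cd44 had 632 CPM with the antibody, 181 CPM with IgG and 999.8 CPM in Matrigel in Inhba-positive cells. There it was 5.51-fold lower (95% interval 5.27 to 5.77) with IgG than in Matrigel and 3.48-fold higher (95% interval 3.35 to 3.63) with the antibody than with IgG. In Pi16-positive cells Cd44 had 234 CPM with the antibody, 209 CPM with IgG and 226 CPM in Matrigel, within 1.5-fold in both comparisons. Whether the ratios in Inhba-positive and Pi16-positive cells differ was not tested. Sparcl1 had 118 CPM with the antibody, 8.56 CPM with IgG and 96.6 CPM in Matrigel in Pi16-positive cells, so it was 13.7-fold higher (95% interval 9.07 to 21.8) with the antibody than with IgG. Mgp was lowest with the antibody in both kinds of cells, with 23.9 CPM with the antibody, 93.2 CPM with IgG and 153 CPM in Matrigel in Inhba-positive cells and 19.8 CPM with the antibody, 109 CPM with IgG and 242 CPM in Matrigel in Pi16-positive cells. Edil3 was 12.7-fold higher in Inhba-positive cells and 14.6-fold higher in Pi16-positive cells with IgG than in Matrigel. These ratios rest on few UMIs in Matrigel. There Inhba-positive cells held 54.7% and Pi16-positive cells 24% of its 75 UMIs, and some cells were in both groups.

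**Figure D4:**
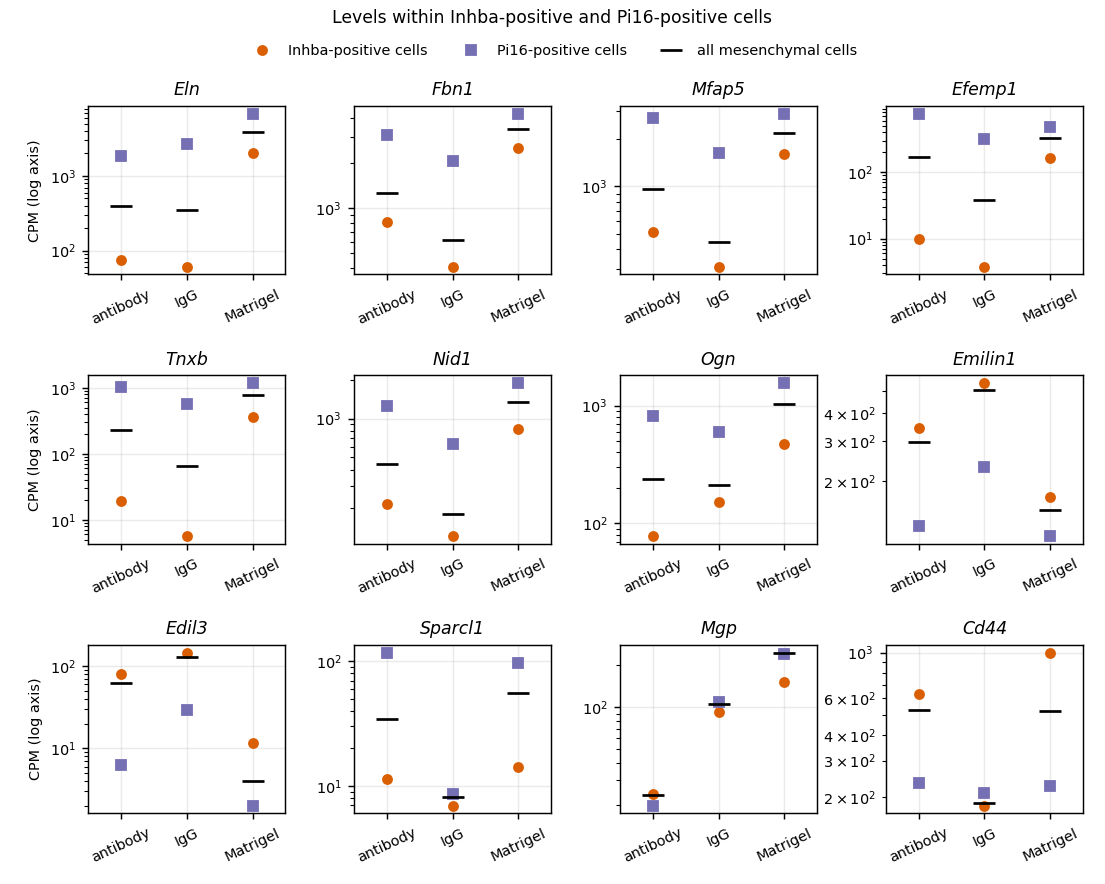
Level of 12 genes (CPM, log axes that differ between panels) in Inhba-positive cells (circles), Pi16-positive cells (squares) and all mesenchymal cells (lines) of the antibody, IgG and Matrigel libraries. For Eln, Tnxb and Efemp1 squares lie above circles in each library, and Cd44 in Inhba-positive cells is at 632 CPM with the antibody, 181 CPM with IgG and 999.8 CPM in Matrigel.

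Shares of cells with a transcript gave a further view of the same counts, with every cell thinned to 1000 UMIs so that depth was equal; this left 578 cells with the antibody, 1443 with IgG and 1912 in Matrigel, and left out 14, 35 and 70 cells of the antibody, IgG and Matrigel libraries. Eln was detected in 19% with the antibody, 9.56% with IgG and 59.8% in Matrigel. Its summed level was about the same with the antibody and with IgG, while the share of cells was larger with the antibody. The exact 95% intervals of these shares, for counting error only, were 15.9% to 22.5% with the antibody and 8.09% to 11.2% with IgG. Unthinned, Eln was detected in 35.1% of cells with the antibody, 19.4% with IgG and 79% in Matrigel. Efemp1 was detected, after thinning, in 19.6% with the antibody, 4.09% with IgG and 30.3% in Matrigel. Tnxb was detected in 22.7% with the antibody, 5.20% with IgG and 49.9% in Matrigel. Emilin1 was detected in 18% with the antibody, 38.9% with IgG and 12.4% in Matrigel, with the IgG library the highest. Bgn was detected in 86.2% with the antibody, 92.9% with IgG and 77.9% in Matrigel, in most cells of each library.

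Free RNA was gauged in myeloid cells of the same libraries, with under 1% of UMIs from the 3 collagens and at least 0.5% from the 8 myeloid markers. For 33 of the 43 genes the level in myeloid cells was under 10% of that in mesenchymal cells in all 3 libraries. The other 10 were Vcan, Nid2, Fn1, Edil3, Ecm1, Emilin1, Sdc1, Sdc4, Gpc1 and Cd44. For these 10 genes free RNA was not separated from transcripts made by the myeloid cells, so their myeloid level does not gauge free RNA. Among the 10 genes, Sdc4 in myeloid cells reached 228% of the mesenchymal level with the antibody, 239% with IgG and 113% in Matrigel. For Cd44, which leukocytes are known to express, the values were 72.1% with the antibody, 196% with IgG and 42.3% in Matrigel. Ecm1 in myeloid cells was at 552 CPM with the antibody, 248 CPM with IgG and 230.4 CPM in Matrigel, so its higher level with the antibody was found in both kinds of cells. Leaving out mesenchymal cells with at least 0.5% of UMIs from myeloid markers ended no call between libraries. These were 4 of 592, 12 of 1478 and 22 of 1982 cells of the antibody, IgG and Matrigel libraries. So few cells could hardly move a summed ratio, and the step does not bear on free RNA in the cells kept.

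Other genes of the same processes were listed beside these 43. With IgG against Matrigel, 12 of 20 measured proteoglycan core proteins outside the 43 were higher and 5 lower, and 5 of 43 other matrix glycoproteins were higher and 25 lower, against 16.6% higher and 21.1% lower over all genes. With the antibody against IgG, 3 of 19 proteoglycan core proteins were higher and 8 lower, and 15 of 41 other matrix glycoproteins were higher and 2 lower, against 9.90% higher and 12.7% lower over all genes. Fmod, encoding fibromodulin, a small leucine-rich proteoglycan, had 859 CPM with the antibody, 1571 CPM with IgG and 49.8 CPM in Matrigel, and was 31.5-fold higher (95% interval 29.6 to 33.7) with IgG than in Matrigel. Acan, encoding aggrecan, the large proteoglycan of cartilage, had 3623 UMIs with the antibody, 32179 with IgG and 1 in Matrigel. Thbs4, encoding thrombospondin 4, had 9.72 CPM with IgG and 115 CPM in Matrigel. Tgfbi, encoding a TGF-beta-induced adhesive glycoprotein, had 738 CPM with IgG and 116 CPM in Matrigel.

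Of 14 genes for elastic fibre crosslinking and assembly, 3 were higher and 8 lower with IgG than in Matrigel (median log2 ratio -0.88), and 6 were higher and 2 lower with the antibody than with IgG (median 0.34). Over all genes the medians were -0.03 for IgG against Matrigel and -0.07 for the antibody against IgG, and the shares over all genes were 16.6% higher and 21.1% lower, and 9.90% higher and 12.7% lower, in the same order of comparisons. Loxl1, encoding the lysyl oxidase-like enzyme needed for elastin renewal in mice, had 372 CPM with the antibody, 226 CPM with IgG and 1001 CPM in Matrigel. Emilin2, the relative of Emilin1, had 238 CPM with the antibody, 116 CPM with IgG and 458 CPM in Matrigel, so its order of libraries was the reverse of that of Emilin1. Loxl3, encoding another lysyl oxidase-like enzyme, had 319 CPM with the antibody, 359.9 CPM with IgG and 169 CPM in Matrigel.

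Enzymes that make and modify glycosaminoglycan chains had 11 of 44 higher and 13 lower with IgG than in Matrigel, and 3 higher and 11 lower with the antibody than with IgG. As shares these were 25% and 29.5% for IgG against Matrigel (all genes 16.6% higher and 21.1% lower), and 6.82% and 25% for the antibody against IgG (all genes 9.90% higher and 12.7% lower). Slc26a2, encoding the sulfate transporter needed for sulfated proteoglycans, had 127 CPM with the antibody, 379.6 CPM with IgG and 36.2 CPM in Matrigel. Papss2, encoding the synthetase of the sulfate donor, had 53.8 CPM with the antibody, 104 CPM with IgG and 38.7 CPM in Matrigel. The IgG library was the highest for both. Ext1, encoding a heparan sulfate polymerase, had 140.2 CPM with the antibody, 104 CPM with IgG and 215 CPM in Matrigel. Of the genes for hyaluronan synthesis, binding and turnover, 4 of 12 were higher and 4 lower with IgG than in Matrigel, and 2 of 11 were higher and 6 lower with the antibody than with IgG, against the same shares over all genes. Itih5, encoding an inter-alpha-trypsin inhibitor heavy chain that binds hyaluronan, had 116 CPM with the antibody, 31.9 CPM with IgG and 415 CPM in Matrigel. Tnfaip6, encoding TSG-6, which crosslinks hyaluronan, had 324 CPM with the antibody, 127 CPM with IgG and 159 CPM in Matrigel.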

How the data were processed

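The authors deposited UMI counts per gene and barcode; from their values, these are whole numbers with no normalization. Cell Ranger 3.0.2 and mm10 are listed in the submitters' processing notes. Library totals were 38163880 (antibody), 46317250 (IgG) and 44252421 UMIs (Matrigel). Cells needed 300 genes, 500 UMIs and no more than 15% mitochondrial UMIs. Scrublet (scanpy 1.11.5) called 4, 3 and 2 doublets in the antibody, IgG and Matrigel libraries, too few to have worked, so the 285, 284 and 681 highest-scoring cells, a rate of 0.8% for every 1000 cells, were removed. UMIs were summed over cells and scaled to CPM. Ratios have exact conditional binomial, levels exact Poisson and shares exact Clopper-Pearson 95% intervals (scipy 1.17.1). A gene was measured with at least 10 UMIs on 1 side, and strata needed 50 cells. List medians add 1 UMI to each sum. Values with a collagen cut of 5% count cells with at least 5% of UMIs from the 3 collagens. The ratio calculation was tested on simulated data. All 43 genes may be named. Of the other lists, the 2 highest and 2 lowest ratios per comparison at 100 CPM or more were eligible. Members and lists were chosen with earlier results of these data known.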

Additional observations from a re-analysis of the deposited data

Results flagged for a closer look

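Ratios between positive and negative mesenchymal cells that lay past 1.5-fold in opposite directions in different libraries are given here. In each case the difference between libraries was not tested, and each value is a ratio of CPM in positive cells to CPM in negative cells of 1 library. By Inhba, Nid2 had a ratio of 1.69 with IgG and 0.272 in Matrigel, and Has1 had 1.60 with the antibody and 0.145 with IgG. By Pi16, Fbln5 had 2.10 with the antibody and 0.633 with IgG. By Col15a1, Nid2 had 0.531 with the antibody and 3.20 in Matrigel. Tnxb had 0.619 with the antibody, 1.79 with IgG and 0.483 in Matrigel. Fbn1 had 1.60 with IgG and 0.607 in Matrigel. Has1 had 2.87 with the antibody, 2.77 with IgG and 0.645 in Matrigel. By Col2a1, Sparcl1 had 0.597 with the antibody and 3.22 with IgG. Counts were low for Nid2, Has1 and Sparcl1, and the 10 cells with the most Has1 held 30.9% of its UMIs with the antibody and 36.5% with IgG.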

How the results depend on the processing

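No paired analysis was possible because each group has 1 library, and no library could be left out. The 14 other settings of cells, scaling and thresholds, and 1 more chosen after seeing the data (each gene without its 10 highest cells per library), kept the counts of genes past 1.5-fold within 1.5 times of those reported, except as follows. A collagen cut of 5% gave 5 genes lower with the antibody than with IgG, 9 past 1.5-fold by Col2a1 with IgG, and 13 between the antibody and IgG in Inhba-positive cells. A threshold of 2-fold gave 7 higher and 2 lower with the antibody than with IgG, 12 by Inhba in Matrigel, 14 by Pi16 in Matrigel, 2, 3 and 9 by Col15a1 with the antibody, with IgG and in Matrigel, and 13 by Col2a1 with IgG. Between the antibody and IgG it gave 9 in Inhba-positive and 7 in Pi16-positive cells. No share over all genes is given for these counts under other settings, so they are not set against a background. The log2 ratio of Fbln5 for the antibody against IgG turned to 0.115 with the 5% cut, where Nid2 and Sdc1, within 1.5-fold as reported, also changed sign, to 0.28 and -0.16. The 5% cut brought Gpc3, Dcn and Ogn past 1.5-fold higher and Thbs1 lower with the antibody than with IgG, at log2 ratios of 1.15, 0.74, 0.61 and -0.75. With IgG against Matrigel it brought Aspn past 1.5-fold higher and Fbln5 lower, at log2 ratios of 0.75 and -1.38. With equal weight per cell, Ogn, Sdc2 and Gpc3 were 1.63-fold, 1.53-fold and 1.51-fold higher with the antibody than with IgG. Division by the median ratio made Sdc2 1.57-fold higher there. Without the 10 highest cells Thbs1, Nid2 and Fbn2 were 1.67-fold, 1.66-fold and 1.52-fold lower. In this comparison Lum and Podn lost their calls at the 2% cut, Prelp with equal weight, and Lum after division by the median ratio. The causes were not tested, apart from the stricter threshold itself. Where fewer than 50 cells or no division remained, no value was given. This held for Col2a1 with the antibody under the 2% and 5% cuts, at 2 UMIs or more and after thinning to 2000 UMIs. It also held for Col2a1 when its positive cells were left out. With 1 library per group, variation between animals is not measured, and low counts limit Edil3 in Matrigel, Omd, Has1, Nid2 and Sparcl1.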

Other observations

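The 43 genes differed in how evenly cells shared their transcripts, which the comparisons above do not use. The 10 mesenchymal cells with the most UMIs of a gene held 7.24% of Sparc with the antibody, 3.51% with IgG and 2.45% in Matrigel. The same share was 24.2%, 8.55% and 14% for Thbs1 in the antibody, IgG and Matrigel libraries, and 20.2%, 13.9% and 9.72% for Cd44. For Mfap4 it was 37.4% with the antibody, 16.6% with IgG and 5.5% in Matrigel, and 9, 6 and 6 of those 10 cells were Pi16-positive. The antibody library had the fewest mesenchymal cells, so 10 cells are a larger share of it. In the IgG library all 10 of the highest cells of Emilin1 and of Nid2 were Col2a1-positive. Close to these came Fbln5 with 9 such cells, and Lum, Mgp and Sparcl1 with 8 each.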
